A study of Homo sapiens with 10 samples.

Results

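The host lncRNAs of microRNAs (miRNAs) are long non-coding transcripts that carry miRNA hairpins in their exons or introns, and their gene symbols join the name of a miRNA to HG, for host gene. They were taken from the deposited expression table by symbol alone, as every entry whose name is MIR, then digits or capital letters, then HG, with 1 entry per gene ID. Of 64940 genes in the table, 58 entries with 56 names were found, because MIR22HG and MIR210HG each appear under a second gene ID that was listed at 0 in all 4 libraries. Symbols with a hyphen and protein-coding hosts were outside this rule.

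The table came from RNA sequencing of cells derived from H9, a human embryonic stem cell line. It holds 2 control and 2 oeDAZL libraries and compares cells with and without overexpression of DAZL, an RNA-binding protein of germ cells. The control libraries are labelled as wt genotype, spontaneous differentiated SD cells, whereas the design text calls them PGCLCs (primordial germ cell-like cells). The oeDAZL libraries are labelled as genotype oeDAZL, hPGCLCs; according to the methods, DAZL was delivered by lentivirus and PGCLCs were induced with BMP4 and BMP8a. Whether the control cells received the BMPs or a control virus is not settled by these sources, so the effects of DAZL and of culture cannot be told apart. Nothing in the labels says that replicates are separate cultures, so P-values measure only the spread between these libraries, with n = 2 per group.

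A miRNA gene is usually transcribed as a long primary transcript, from which DROSHA with DGCR8 cuts the hairpin in the nucleus and DICER then releases the mature miRNA in the cytoplasm. The host lncRNA is the spliced or unspliced remainder of that transcript, so its level follows transcription and turnover of the host and is not a measure of the mature miRNA. The miRNAs of these hosts include let-7, known for repressing LIN28 and for rising on differentiation, the miR-302 cluster, abundant in pluripotent stem cells, and the miR-17 cluster, known for driving proliferation. Mature miRNAs were not analysed here.

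The sequences of the mature miRNAs show how the hosts are related, because miRNAs with the same seed (bases 2 to 8, in capitals) can pair with the same target sites. They are from RefSeq (GRCh38.p14) and are written 5′ to 3′. The miRNAs of the families that the study follows as changed on DAZL overexpression are shown before those of other hosts. The study reports let-7, miR-22 and miR-125b as higher on DAZL overexpression, and its text gives no direction for miR-202. MIR100HG holds the genes of let-7a and miR-125b, MIR99AHG holds let-7c, MIR22HG holds miR-22 and MIR202HG holds miR-202, while let-7f comes from a gene that the table does not name as a host.
hsa-let-7a-5p: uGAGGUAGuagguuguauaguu
hsa-let-7c-5p: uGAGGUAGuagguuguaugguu
hsa-let-7f-5p: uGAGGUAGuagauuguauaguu
hsa-miR-125b-5p: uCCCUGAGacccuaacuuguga
hsa-miR-22-3p: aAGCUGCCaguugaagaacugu
hsa-miR-202-5p: uUCCUAUGcauauacuucuuug
The 3 let-7 miRNAs share the seed GAGGUAG, although the genes from which they were read lie on chromosomes 11, 21 and 9. Neither miR-125b-5p, miR-22-3p nor miR-202-5p, the arms printed here, shares a seed with them. The other arms were not compared, and the MIR202 hairpin holds the let-7 seed letters GAGGUA outside the printed arm.

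Among the 15 hosts with a mean of at least 1 TPM (a transcript level scaled for transcript length and library total), several hold miRNAs that share a seed within a cluster or between hosts. These are shown because the same seed can arise from hosts with different levels, with miR-3936 added because its host was called lower in oeDAZL.
hsa-miR-503-5p: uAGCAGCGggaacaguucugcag
hsa-miR-424-5p: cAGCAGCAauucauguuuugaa
hsa-miR-195-5p: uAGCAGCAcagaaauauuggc
hsa-miR-497-5p: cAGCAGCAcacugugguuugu
hsa-miR-17-5p: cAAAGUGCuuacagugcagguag
hsa-miR-20a-5p: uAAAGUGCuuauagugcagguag
hsa-miR-92a-3p: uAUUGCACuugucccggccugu
hsa-miR-367-3p: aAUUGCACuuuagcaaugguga
hsa-miR-302a-3p: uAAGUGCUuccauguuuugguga
hsa-miR-302d-3p: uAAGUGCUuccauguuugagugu
hsa-miR-221-3p: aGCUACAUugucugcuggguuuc
hsa-miR-222-3p: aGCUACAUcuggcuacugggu
hsa-miR-3936: uAAGGGGUguauggcagaugca
The seed AGCAGCA of miR-424 is also that of miR-195 and miR-497 (in MIR497HG). The miR-424 hairpin crosses the start of MIR503HG, and the arm printed here lies outside that gene. The seed AUUGCAC of miR-92a (in MIR17HG) is also that of miR-367 (in MIR302CHG). The seeds of miR-17 and miR-302a both hold the letters AAGUGC. The seed of miR-3936 was not shared with any other miRNA printed here.

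The study assigns DAZL a preference for GUU in the loops of miRNA precursors. The letters GUU were searched over whole RefSeq hairpins, on the RNA strand only. Loop and stem were not told apart, so the GUU found need not lie in a loop. Hairpins on chromosomes 8 and 18 were left out. GUU was found in 996 of the 1529 hairpins searched (65.14%) and in 50 of 66 (75.76%) lying in host lncRNAs. In host lncRNAs with a mean of at least 1 TPM it was found in 22 of 26 (84.62%). The hairpins of MIR22, MIR3936 and MIR181B2, which lie in such hosts, were not searched for want of a sequence. These shares describe the letters only, are not matched for hairpin length, and do not show binding. The hairpins of let-7a-2, miR-125b-1 and let-7c are shown with GUU in capitals, as examples from 2 hosts of the followed families that were above 0 in every library.
MIRLET7A2: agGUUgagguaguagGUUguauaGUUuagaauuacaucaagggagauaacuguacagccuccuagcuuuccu
MIR125B1: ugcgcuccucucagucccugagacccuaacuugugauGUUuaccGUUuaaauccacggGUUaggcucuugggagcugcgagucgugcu
MIRLET7C: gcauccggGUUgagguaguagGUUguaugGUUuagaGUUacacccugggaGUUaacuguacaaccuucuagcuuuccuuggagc
The hairpin of let-7c, in MIR99AHG, holds 5 GUU and those of let-7a-2 and miR-125b-1, both in MIR100HG, hold 3 each. MIR99A, which lies beside let-7c in the same host, holds 0.

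Of the 58 entries, 53 could be placed on hg38 by gene ID in GENCODE 44, and 52 of these overlap at least 1 annotated miRNA gene. They overlap 87 miRNA genes, 82 on the same strand and 5 on the opposite strand. Of the 82 on the same strand, 36 lie in an exon, 39 in an intron and 7 partly in an exon. In the host lncRNAs with a mean of at least 1 TPM, 18 of 29 same-strand hairpins lie in an exon, 7 in an intron and 4 partly in an exon.

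**Figure D1:**
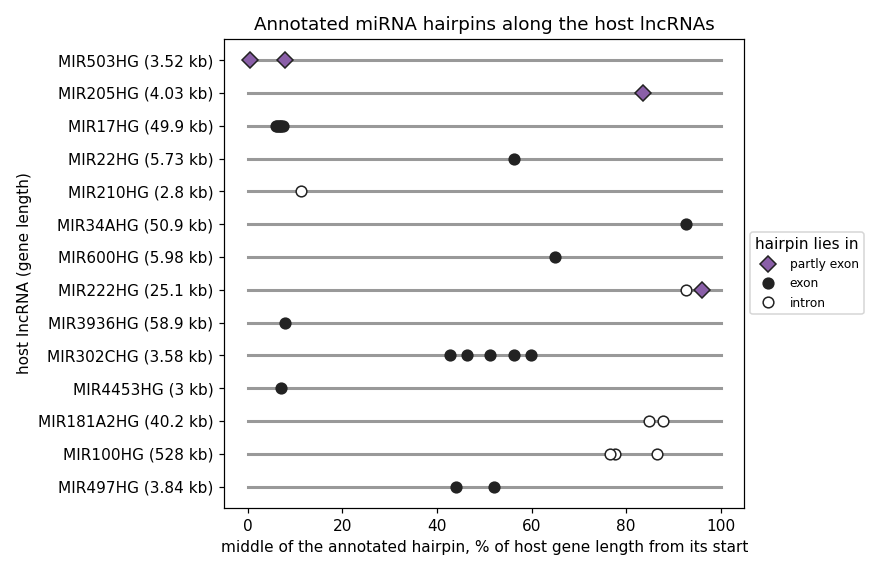
Position of each same-strand annotated miRNA hairpin along its host lncRNA, as a percentage of the gene length from the start of the host (x axis), for the 14 placed hosts with a mean of at least 1 TPM (y axis, with gene length in kb). Filled circles lie in an exon, open circles in an intron and diamonds partly in an exon; the 6 hairpins of MIR17HG and the 5 of MIR302CHG lie in exons, whereas the 3 of MIR100HG lie in introns.

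The host lncRNAs were expressed over a wide range. A mean of at least 1 TPM over the 4 libraries was found for 15 of 58 entries (25.86%), beside 25.7% of all genes and 12.42% of the lncRNAs that GENCODE 44 lists. Of the 58, 13 had at least 1 TPM in every library and 17 in at least 1 library. A further 20 were above 0 with a mean under 1 TPM, and 23 (39.66%) were listed at 0 in all libraries, beside 48.8% of all genes. TPM keeps no read depth, so a listed 0 does not show absence. The depth behind the values is unknown.

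MIR503HG and MIR205HG had the highest levels, with means of 36.5 and 32.3 TPM. MIR205HG hosts miR-205, a miRNA of epithelia, and had 32.2 and 30.7 TPM in the control and 30.8 and 35.5 TPM in the oeDAZL libraries. MIR17HG, the host of the miR-17 cluster, followed with 20.5 and 17.7 TPM in the control and 18.5 and 15.8 TPM in the oeDAZL libraries. The values of MIR503HG overlap those of MIR205HG, so their order does not exceed the spread between libraries.

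MIR22HG and MIR210HG were next, at means of 14.4 and 14.2 TPM, and their ranges overlap. MIR22HG had 18.3 and 11.0 TPM in the control and 14.1 and 14.2 TPM in the oeDAZL libraries. MIR210HG, whose miRNA is known to be induced by hypoxia, had 17.7 and 12.3 TPM in the control and 10.5 and 16.2 TPM in the oeDAZL libraries. In both genes the oeDAZL libraries did not separate from the controls.

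MIR34AHG, MIR600HG and MIR222HG had means of 7.36, 6.34 and 6.13 TPM, MIR3936HG followed closely, and their ranges overlap. MIR222HG holds miR-221 and miR-222, known for repressing the cell cycle inhibitor CDKN1B, and had 4.29 and 7.62 TPM in the control and 5.73 and 6.88 TPM in the oeDAZL libraries. MIR600HG had 7.79 and 6.17 TPM in the control and 5.54 and 5.85 TPM in the oeDAZL libraries. Almost all of it overlaps STRBP on the same strand, which had 32.6 to 41.5 TPM, so reads of these genes may be split between them.

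MIR302CHG, the host of the miR-302 cluster and miR-367, had 4.57 and 3.42 TPM in the control and 4.01 and 2.82 TPM in the oeDAZL libraries. It lies on the opposite strand of LARP7, which had 63.1 to 73.5 TPM. Whether the counting used strand is not given in the sources used here, so reads of MIR302CHG and LARP7 cannot be told apart with certainty.

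MIR4697HG (mean 3.74 TPM), MIR4453HG (3.39 TPM) and MIR181A2HG (3.21 TPM), the last a host of the miR-181 family known from lymphocytes, had overlapping ranges. MIR4697HG had 3.21 and 3.92 TPM in the control and 3.60 and 4.22 TPM in the oeDAZL libraries. MIR4453HG had 3.10 and 3.07 TPM in the control and 4.09 and 3.30 TPM in the oeDAZL libraries, and MIR181A2HG had 3.72 and 2.81 TPM against 3.96 and 2.37 TPM. The oeDAZL libraries of MIR4453HG were both above its controls, and those of MIR4697HG and MIR181A2HG overlapped their controls. MIR181A2HG lies within NR6A1 on the opposite strand, which had 20.0 to 22.6 TPM, so the same limit on strand holds for it.

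The lowest of the 15 were MIR100HG and MIR497HG. MIR100HG had 2.42 and 3.02 TPM in the control and 3.04 and 1.14 TPM in the oeDAZL libraries. MIR497HG, the host of miR-195 and miR-497, had 1.64 and 0.770 TPM in the control and 0.828 and 1.23 TPM in the oeDAZL libraries. Neither gene separated the groups. MIR497HG overlaps C17orf49 on the opposite strand, which had 38.4 to 64.2 TPM. As strand use is unknown, reads of MIR497HG and C17orf49 cannot be told apart with certainty.

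**Figure D2:**
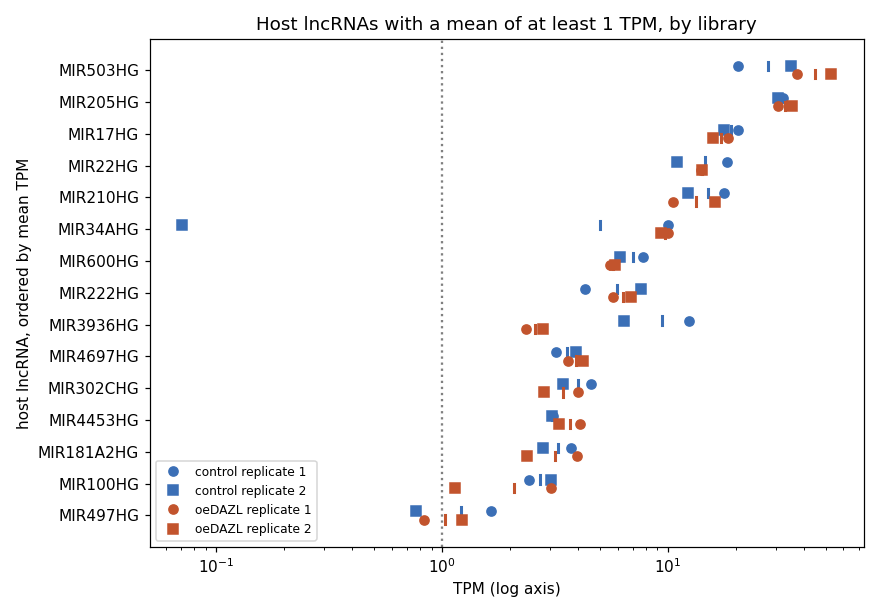
TPM (x axis, log scale) of the 15 host lncRNAs with a mean of at least 1 TPM (y axis, ordered by mean) in each of the 4 libraries; circles are replicate 1, squares replicate 2, short vertical lines the group means, and the dotted line marks 1 TPM. The control values of MIR3936HG, 6.39 and 12.5 TPM, lie above both oeDAZL values, and the control replicate 2 value of MIR34AHG, 0.0706 TPM, lies far below the other 3.

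The targeted gene was checked before the hosts were compared. DAZL had 0 and 0.0333 TPM in the control and 102 and 101 TPM in the oeDAZL libraries, so both groups carried the label they were given. Of 6 primordial germ cell markers, TFAP2C, which amnion and trophoblast also express, had 44.3 to 53.9 TPM over the 4 libraries, and NANOS3, DPPA3, DND1, PRDM1 and SOX17 had between 0.450 TPM (DND1) and 3.35 TPM (SOX17). Amnion and trophoblast markers (HAND1, KRT7, TFAP2A, GATA3 and ISL1) summed to 1881 and 1982 TPM in the control and 2225 and 2209 TPM in the oeDAZL libraries. HAND1, with 958 and 1042 TPM in the control and 1250 and 1247 TPM in the oeDAZL libraries, made most of that difference, ISL1 and GATA3 were lower in both oeDAZL libraries, 0 of the 5 were called, and their median log2 fold change was 0.0053.

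The comparison between oeDAZL and control asks whether the host transcripts differed in the cells in which DAZL was overexpressed. A gene was called when limma's fit on log2(TPM + 1) over 16687 genes gave at least a 2-fold change and an unadjusted P of at most 0.05. Of the 15 host lncRNAs tested, 0 were called higher, beside 0.126% of all tested genes, and 1 was called lower, beside 0.563%. An unadjusted P of at most 0.05 was reached by 2 of 15, beside 20.2% of all tested genes, and 0 had a Benjamini-Hochberg adjusted p under 0.05 in limma, beside 0.0599%. The fold change was positive for 6 and negative for 9 (60% negative, beside 65.3% of all tested genes), with a median log2 fold change of -0.05, beside -0.08 over all tested genes. Both oeDAZL libraries lay above both controls for 2 hosts (MIR503HG and MIR4453HG), beside 16% of all tested genes, and below them for 2 (MIR3936HG and MIR600HG), beside 38.4%. The counts by P and by overlap are below the background, and the single lower call is 1 gene, so these counts are not a result about the host lncRNAs.

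MIR3936HG was the host called lower. It is a gene of 58.9 kb on the minus strand at chr5:132311285-132370170 (hg38), and the hairpin of miR-3936 lies in an exon at 7.86% of its length from its start. It had 12.5 and 6.39 TPM in the control (9.42 ± 4.29, SD, n = 2) and 2.35 and 2.80 TPM in the oeDAZL libraries (2.58 ± 0.32, SD, n = 2). Both oeDAZL libraries were below both controls, and the control libraries differed more from each other than the oeDAZL libraries did.

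The log2 fold change of MIR3936HG was -1.48 (SE 0.29; 95% interval -2.19 to -0.78; unadjusted P = 0.00200 and adjusted p = 0.0962 by limma). Its adjusted p by limma thus misses the threshold. Over the planned settings with all 4 libraries it ranged from 0.0931, at a pseudocount of 0.1, to 0.339, with no filter. A block with crossed replicate numbers, added after the data were seen, gave 0.00909. With that block 1089 of all tested genes had an adjusted p under 0.05, beside 10 in the main fit, so this low value is not particular to MIR3936HG. Without control replicate 1, the higher of the control values, the log2 fold change of MIR3936HG was -1.05.

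MIR3936HG overlaps SLC22A5, a carnitine transporter gene, at their 5′ ends on opposite strands, and SLC22A4 in its far part. SLC22A5 had 15.4 and 10.3 TPM in the control and 7.83 and 9.91 TPM in the oeDAZL libraries, with a log2 fold change of -0.47 (adjusted p = 0.270 by limma). As strand use is unknown, reads of these genes cannot be told apart with certainty. The miRNA gene MIR3936 had 6.35 and 2.78 TPM in the control and 3.11 and 1.88 TPM in the oeDAZL libraries, which overlap.

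The summed level of the mesenchyme markers was lower in both oeDAZL libraries, as was MIR3936HG. Of all tested genes, 38.4% were lower in both oeDAZL libraries and 0.563% were called lower. The 5 markers COL1A1, COL3A1, TWIST1, PDGFRA and DCN summed to 1350 and 1159 TPM in the control and 706 and 735 TPM in the oeDAZL libraries, none of them was at 0, and COL3A1 and DCN were called lower. COL1A1 and COL3A1 made most of the sum, PDGFRA had a log2 fold change of -0.20, and TWIST1 went the other way, with 13.1 and 11.0 TPM in the control and 12.6 and 13.3 TPM in the oeDAZL libraries. Their part in the values of MIR3936HG was not tested. In bulk samples, fewer cells of a type and less RNA per cell cannot be told apart.

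**Figure D3:**
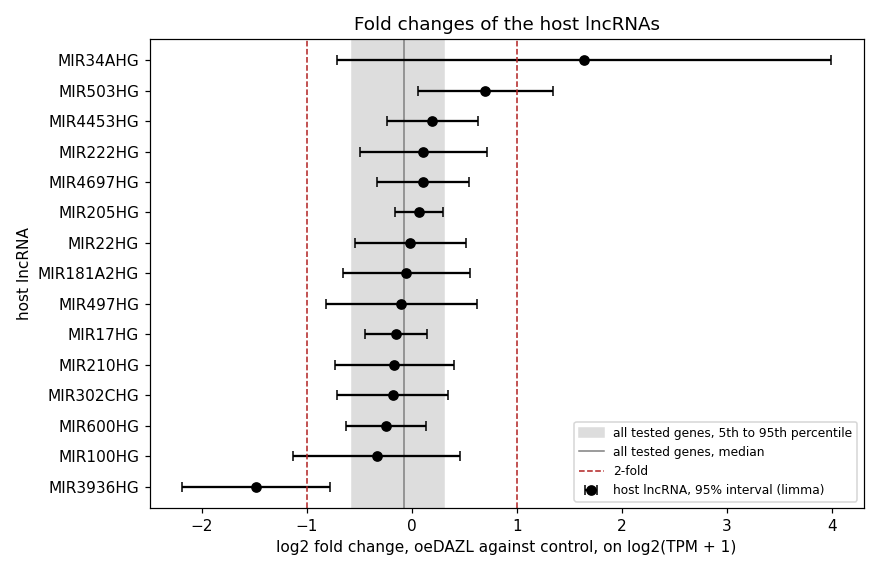
Log2 fold change of oeDAZL against control on log2(TPM + 1) (x axis) for the 15 tested host lncRNAs (y axis); points are limma's estimates and bars their 95% intervals. The grey band spans the 5th to 95th percentile of all 16687 tested genes, from -0.57 to 0.31, the grey line is their median, and dashed lines mark a 2-fold change; MIR3936HG, MIR503HG and MIR34AHG lie outside the band.

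MIR503HG was the other host with an unadjusted P under 0.05, and it was not called because its change stayed below 2-fold. The gene of 3.52 kb lies on the minus strand at chrX:134543119-134546642 (hg38) and holds miR-503 near its start, with miR-424 across its 5′ end; miRNAs of this kind are known for repressing cyclins. It had 20.5 and 35.3 TPM in the control and 37.3 and 52.9 TPM in the oeDAZL libraries. Both oeDAZL values were above both controls, by little for the nearest pair.

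Its log2 fold change was 0.70 (SE 0.27; 95% interval 0.05 to 1.35; unadjusted P = 0.0377 and adjusted p = 0.221 by limma). Without control replicate 2 the log2 fold change was 1.08, which passes the call, and without control replicate 1 it was 0.32. The row of its miRNA gene MIR503 had 2.95 and 3.99 TPM in the control and 5.51 and 5.12 TPM in the oeDAZL libraries, with a log2 fold change of 0.51 (adjusted p = 0.204 by limma). As the hairpin lies partly in an exon of MIR503HG, the rows may share reads and are not independent.

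MIR34AHG, the host of the p53-induced miR-34a, had the largest positive estimate and the widest interval. It had 9.98 and 0.0706 TPM in the control and 10.0 and 9.36 TPM in the oeDAZL libraries. Control replicate 2 alone was low, while control replicate 1 lay between the oeDAZL values. The log2 fold change was 1.64 (95% interval -0.71 to 3.99; adjusted p = 0.387 by limma), and it was -0.04 without control replicate 2 and 3.32 without control replicate 1.

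The row of MIR34A, an exonic hairpin of MIR34AHG, went the other way in that library. It was 0.102 TPM in control replicate 2 and at most 0.00023 TPM in the other 3 libraries. LNCTAM34A, on the opposite strand within MIR34AHG, had 3.57 and 4.58 TPM in the control and 2.53 and 3.16 TPM in the oeDAZL libraries.

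The other 12 hosts had log2 fold changes between -0.33 (MIR100HG) and 0.20 (MIR4453HG), with 95% intervals that include 0. The narrowest of these intervals was that of MIR205HG, from -0.16 to 0.30, and for MIR17HG it was -0.44 to 0.14. Changes of 2-fold lie outside these intervals. For MIR100HG the interval reached from -1.13 to 0.46, so a 2-fold fall lies inside it.

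**Figure D4:**
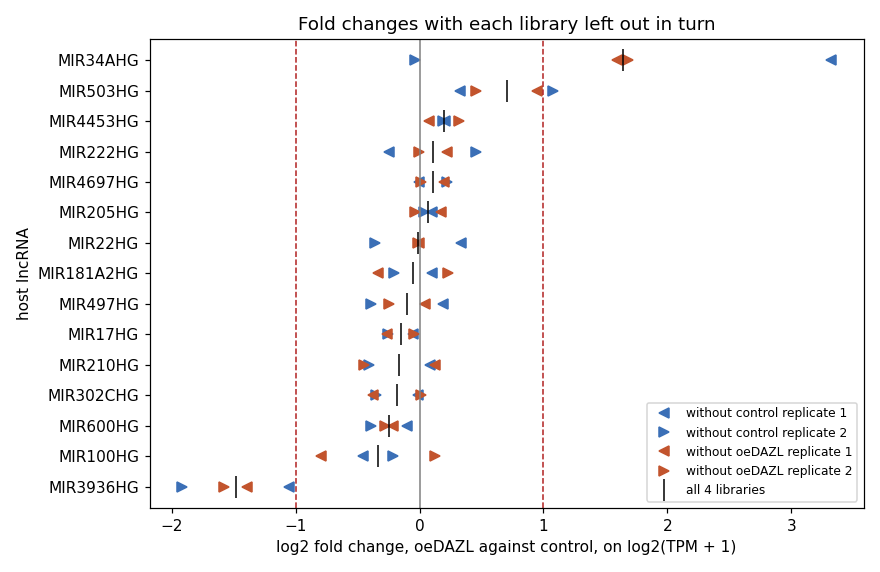
Log2 fold change of oeDAZL against control on log2(TPM + 1) (x axis) for the 15 host lncRNAs (y axis), from all 4 libraries (vertical lines) and after leaving out each of them (triangles, blue for controls and orange for oeDAZL); dashed lines mark a 2-fold change. MIR3936HG stayed below -1 throughout, between -1.91 and -1.05, whereas MIR34AHG ranged from -0.04 to 3.32.

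Of the miRNA families that the study follows, let-7, miR-125, miR-22 and miR-202 have a host in this group. Of these hosts only MIR22HG and MIR100HG were tested, and neither was called; the others had means under 1 TPM and were not tested. MIR22HG, at chr17:1711447-1717174 (hg38) with miR-22 in an exon, had a log2 fold change of -0.01 (95% interval -0.54 to 0.52). MIR100HG, a gene of 528.4 kb at chr11:122028325-122556721 (hg38) whose let-7a-2, miR-100 and miR-125b-1 lie in introns, had -0.33. MIR22HG overlaps the protein-coding gene WDR81 on the opposite strand, which had 9.13 to 10.7 TPM.

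The other hosts of these families were under 1 TPM in every library. MIR99AHG, the host of let-7c, miR-99a and miR-125b-2, had 0.223 and 0.0118 TPM in the control and 0.0802 and 0.514 TPM in the oeDAZL libraries. The entry named MIRLET7A1HG, which could not be placed by its gene ID, had 0.343 and 0.708 TPM in the control and 0.773 and 0.140 TPM in the oeDAZL libraries. MIRLET7BHG, the host of let-7a-3 and let-7b, and MIR202HG were listed at 0 in all 4 libraries. MIR200CHG, whose miR-200c and miR-141 keep epithelial identity, was also listed at 0.

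GENCODE 44 gives names of the same form to 21 further genes that the table names otherwise, and 9 of them had a mean of at least 1 TPM; this set was found after the values were seen. They include the gene named MIRLET7A1HG in GENCODE 44 and AL158152.1 in the table, which holds let-7a-1, let-7f-1 and let-7d. It had 3.10 and 2.35 TPM in the control and 3.05 and 2.79 TPM in the oeDAZL libraries. AC048341.1, now MIRLET7IHG, had 1.54 and 1.46 TPM in the control and 1.12 and 1.15 TPM in the oeDAZL libraries, with a log2 fold change of -0.23 (adjusted p = 0.601 by limma). None of the 9 was called or had an unadjusted P under 0.05.

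Rows of the hosted miRNA genes themselves were mostly at or near 0. A mean of at least 1 TPM was found for 8 of 29 same-strand miRNA genes in the hosts of at least 1 TPM, beside 110 of all 1877 miRNA genes in the table (5.86%). The 29 were chosen by the level of their hosts, so these shares are not comparable. The 8 are MIR205, MIR210, MIR221, MIR302C, MIR302D, MIR367, MIR3936 and MIR503, and none was called. Such rows can hold reads of the unprocessed host and are not levels of mature miRNA.

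Within MIR302CHG the rows of the exonic hairpins differed in direction, and none of those tested was called. They may share reads with the host, so the split of reads between rows is uncertain. Of all tested genes, 16% had both oeDAZL libraries above both controls and 38.4% below them. MIR367 had 2.29 and 1.50 TPM in the control and 3.87 and 3.27 TPM in the oeDAZL libraries, and MIR302D had 1.33 and 0.799 TPM against 2.90 and 2.20 TPM. MIR302B had 1.24 and 0.604 TPM in the control and 0.0134 and 0.0726 TPM in the oeDAZL libraries. It was not tested because its mean was under 1 TPM. For MIR302A and MIR302C the oeDAZL values overlapped those of the control, with a log2 fold change of -0.13 for MIR302C. The log2 fold changes were 0.67 for MIR367 (adjusted p = 0.184 by limma) and 0.79 for MIR302D (adjusted p = 0.173 by limma), while that of the host was -0.18.

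In MIR17HG the 6 hairpin rows were between 0 and 0.182 TPM although the host had 15.8 to 20.5 TPM. MIR22 had 0.00675 to 0.0423 TPM, beside 11.0 to 18.3 TPM for MIR22HG. In MIR100HG all 3 hairpin rows were listed at 0.

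Other genes that hold miRNA genes, mostly protein-coding, were compared from a list of 27 genes. Of these, 17 were tested and 0 called, with a median log2 fold change of -0.10. In DNM1 and DNM2, both tested, the miR-199 gene lies on the opposite strand, so their own transcripts do not carry the miR-199 hairpin. An unadjusted P of at most 0.05 was reached by 6 of 17, beside 20.2% of all tested genes, and VMP1 alone of the 6 was higher. VMP1, whose last part holds miR-21, had 92.6 and 101 TPM in the control and 115 and 114 TPM in the oeDAZL libraries, with a log2 fold change of 0.24 (unadjusted P = 0.00975 and adjusted p = 0.144 by limma). WDR82, in which let-7g lies, had 102 and 95.3 TPM in the control and 91.0 and 91.7 TPM in the oeDAZL libraries. DNM2, on whose opposite strand a miR-199a lies, had 125 and 124 TPM against 113 and 120 TPM, and DNM3OS, the host of another, was under 1 TPM in all libraries.

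The other 5 genes of the list with an unadjusted P of at most 0.05 were lower in both oeDAZL libraries. They are named after their values were seen. HOXB3, listed as host of miR-10a, had 27.2 and 17.6 TPM in the control and 10.8 and 13.7 TPM in the oeDAZL libraries, with a log2 fold change of -0.80 (unadjusted P = 0.00896 and adjusted p = 0.139 by limma). Among its up-regulated miRNAs the study names miR-10b. HOXD3, also on the list, was under 1 TPM in all libraries and was not tested. The log2 fold change was -0.55 for DNM1, on whose opposite strand another miR-199 lies, and -0.32 for SPACA6, listed as host of let-7e and miR-125a. It was -0.35 for EGFL7, the host of miR-126, and -0.21 for HUWE1, the host of another let-7f and miR-98. The adjusted p of these 4 lay between 0.130 (EGFL7) and 0.242 (HUWE1) by limma.

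Genes of miRNA processing were all expressed. Of 12 listed, among them DROSHA, DGCR8, XPO5, DICER1, the AGO genes, LIN28A and LIN28B, 12 were tested and 0 called, with a median log2 fold change of -0.11. DROSHA had 54.5 and 53.0 TPM in the control and 46.4 and 49.6 TPM in the oeDAZL libraries, with a log2 fold change of -0.16 (adjusted p = 0.267 by limma).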

How the data were processed

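RNA sequencing libraries of 2 control and 2 oeDAZL samples were analysed; the miRNA libraries of the series were not analysed here. The authors deposited TPM per gene, 1 column per library, without pooling. Per the methods and the submitters' processing notes, reads were trimmed with Trim Galore, mapped to hg38 with HISAT2 2.1.0 and quantified with StringTie 2.1.4, keeping only uniquely mapped reads; the annotation release and the use of strand are not given in the sources used here. Of 65003 entries, 45 copies on chromosome Y and 18 repeated gene IDs were left out. TPM keeps no depth, so no interval of counting error or floor was computed, and precision rests on the spread between libraries.

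TPM was transformed to log2(TPM + 1), on which fold changes of low genes are understated. Genes with a mean of at least 1 TPM (16687) entered a linear model in limma 3.58.1 (R 4.3.3; eBayes with a trend), without covariates. Calls need a 2-fold change or more together with an unadjusted P up to 0.05, the cut-offs in the methods of the study. Benjamini-Hochberg values accompany the calls. The study applied these cut-offs to read counts with a different program, not to log2(TPM + 1) in limma. It reports more genes in each direction than the 21 higher and 94 lower called here. A gene not called here may therefore be among those reported by the study. Exactly permuting 2 against 2 libraries cannot give a p under 0.333 and was not done. The fit was tested on simulated data. Members were placed by gene ID in GENCODE 44. Hosts named were all with a mean of at least 1 TPM and all holding a miRNA of the families the study names (let-7, miR-10, miR-21, miR-22, miR-125, miR-185, miR-199, miR-9 and miR-202), with their miRNA genes. MIR200CHG, DROSHA, further other hosts and the genes overlapping hosts were named after their values were seen. The members and lists were chosen with earlier results of these data known. Alternatives were a pseudocount of 0.1, no filter, median-of-ratios scaling, quantile normalization, a replicate block, no trend, adjusted p, and each library left out in turn.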

Additional observations from a re-analysis of the deposited data

How the results depend on the processing

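MIR3936HG was called lower under every alternative except an adjusted p under 0.05, where 0 hosts were called. Counts of all tested genes called, 21 higher and 94 lower, became 55 and 267 at a pseudocount of 0.1, 41 and 52 with quantile normalization, and 3 and 2 with the adjusted p. Of the calls, 81.7% were lower, 75.2% with median-of-ratios scaling and 55.9% with quantile normalization; the cause was not tested. The median log2 fold change of the hosts was 0.082 with quantile normalization. Under median-of-ratios scaling the log2 fold change turned to 0.013 for MIR181A2HG and 0.067 for MIR22HG, and under quantile normalization to 0.12 for MIR181A2HG, 0.082 for MIR22HG and 0.080 for MIR497HG.

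With each library left out in turn, where a group of 1 library is assumed to vary like the other group, genes called higher numbered 35 to 87 and genes called lower 85 to 235. Hosts called higher numbered 0 to 1 (MIR34AHG without control replicate 1, MIR503HG without control replicate 2), and the median of the hosts ranged from -0.22 to 0.080. Log2 fold changes that changed sign ranged from -0.79 to 0.12 for MIR100HG, -0.33 to 0.23 for MIR181A2HG, -0.033 to 0.17 for MIR205HG, -0.45 to 0.12 for MIR210HG, -0.24 to 0.46 for MIR222HG, -0.36 to 0.33 for MIR22HG, -0.38 to 0.014 for MIR302CHG, -0.038 to 3.32 for MIR34AHG, -0.0072 to 0.22 for MIR4697HG and -0.39 to 0.19 for MIR497HG.

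Replicate numbers are shared between the groups, but nothing in the labels says that they pair the libraries. Differences between replicates correlated at -0.10 between the groups, over genes. With a replicate block, 26 genes were called higher and 99 lower, and MIR3936HG was the host called. A block with crossed numbers, added after the data were seen, called 28 genes higher and 107 lower, with 1 host higher (MIR34AHG) and 1 lower. With 2 libraries per group and unknown depth, small changes of hosts of few TPM were not detectable.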
